A study of Homo sapiens with 3 samples.

Results

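The response of TC32 cells to a small molecule was described from 1 treated library, set against 1 control library. The molecule is called YK here, as in the title of its library, and its full name stands on the axes of the plots. TC32 is an established Ewing sarcoma cell line. Treated cells received 3 µM YK for 15 h, with DMSO as the vehicle named in the labels, which do not say whether the control cells received vehicle. The series holds 3 RNA-seq libraries, and the remaining one comes from TC32 cells with knockdown of EWS-FLI1. It was used here in the scaling and in the filter on low values, and its values stand beside a few genes. All 3 libraries were labelled as grown in the same serum-supplemented medium. Values were compared for 9939 of the 22714 gene names in the files, those with a mean of at least 1 FPKM over the 3 libraries. FPKM, the deposited unit, counts sequenced fragments per length of transcript and per depth of library.

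Ewing sarcoma is driven by EWS-FLI1, a chimeric transcription factor that joins the start of EWSR1 to the DNA-binding domain of the ETS factor FLI1. It activates genes at GGAA repeats and, directly or through other regulators, holds down genes of mesenchymal differentiation. The RNA helicase DHX9 is one of its protein partners, and YK was developed to keep EWS-FLI1 and this helicase apart. The series title places the fusion beside arrest in G2/M and sensitivity to vincristine, a drug that binds tubulin and blocks the mitotic spindle. Progress through the cycle is read in RNA from genes switched on in waves. E2F targets of DNA replication peak around entry into S phase, and genes of mitotic entry peak in G2.

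With 1 library a group there is no spread between replicates and no test was made. Higher and lower thus refer to these 2 libraries alone. The deposited values of the median compared gene were 6.35-fold lower in treated cells than in the control. Each library was therefore scaled so that its median gene matched. The factors were 0.325 for the control, 1.44 for the knockdown library and 2.12 for the treated library. A shift shared by all transcripts is thus removed by design. Deposited FPKM are values before scaling and do not compare directly between libraries. The relative log2 ratio used below is the difference of log2(scaled FPKM + 1), treated minus control, and it understates the change of scarce genes. Plain ratios of scaled FPKM carry 95% intervals from estimated fragments, about 24696097 in the control and 18680146 in treated cells over compared genes. The standard errors (SE) and intervals cover counting error only. PCR copies are not independent molecules, so both are too narrow.

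Most genes stayed close to the median gene. Of the 9939 genes, 79.5% lay within 0.5 of 0 on the log2 scale, and the range from the 5th to the 95th percentile ran from -0.68 to 0.74. At a relative log2 ratio of at least 1, 240 genes (2.41%) were higher in treated cells, and at -1 or less 168 genes (1.69%) were lower. Together 408 genes (4.11%) lay past the threshold. Of these calls 58.8% were higher, against 73.3% on deposited ratios centred on their median and 16.01% with scaling over all named genes, which put the median of all compared genes at -0.38. In the centred setting 1 was added before any scaling. Scarce genes are raised and abundant ones lowered there by construction. That setting put 12.3% of all compared genes higher and 4.49% lower, and scaling over all named genes 1.56% and 8.18%. List counts under these settings are to be read beside these shares. Genes called higher were mostly scarce in the control, with a median of 1.06 scaled FPKM there and 9.79 in treated cells. Those called lower had medians of 19.7 and 5.50 scaled FPKM. Of the higher genes, 47 rested on fewer than 10 estimated fragments in the control. Just inside the threshold were ETV6 and SYNJ2, both at 1.001, and just outside it LOC100130950 and KANK3, at 0.998 and 0.995. On the lower side CCDC167 and AGPAT4 stood inside at -1.001 and -1.007, with KANSL3 at -0.997 and L3MBTL2 at -0.995 outside.

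**Figure D1:**
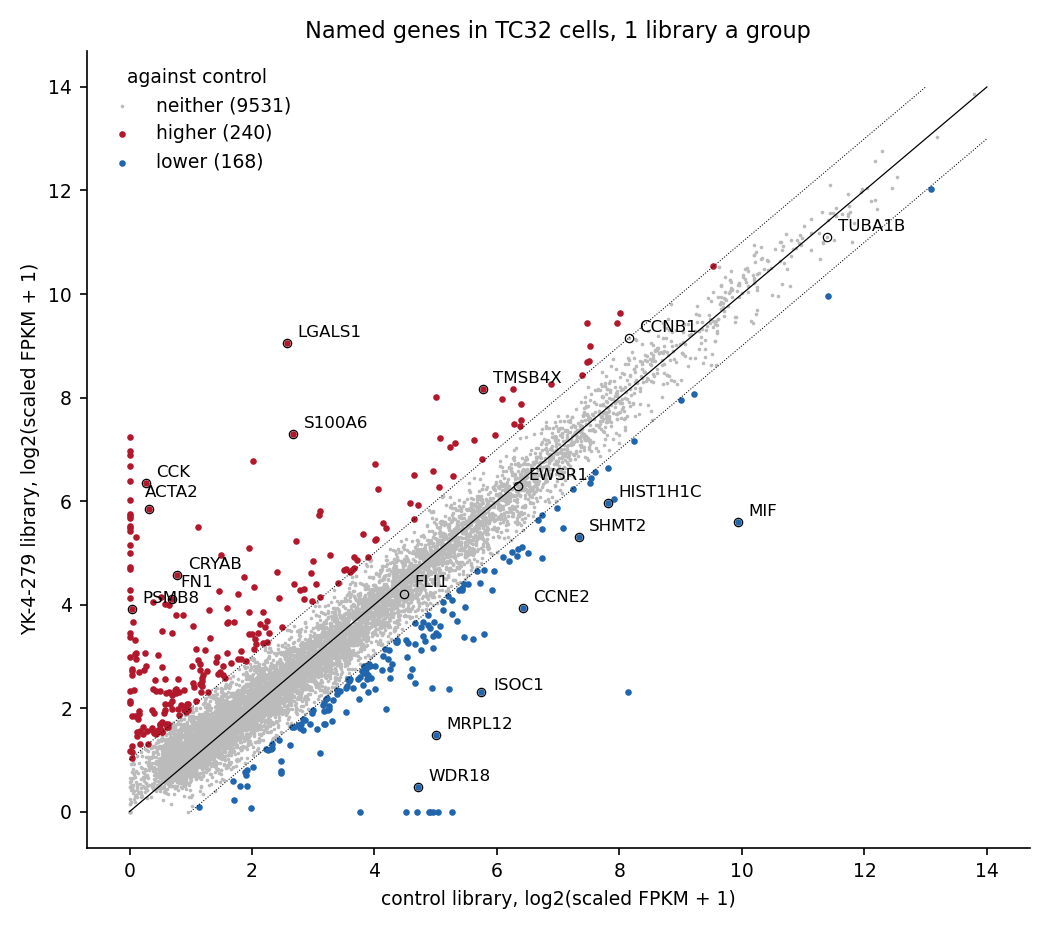
Each point is 1 of 9939 genes, with log2(scaled FPKM + 1) in the control library on the horizontal axis and in the treated library on the vertical axis. The solid line marks equal levels and the dotted lines the threshold of 1; 240 genes in red lie above it and 168 in blue below it, with LGALS1 and MIF far from the line.

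The fusion transcript was not measured apart from its partner genes, on both of which its reads fall, and EWSR1 also counts the unfused allele. The deposited FPKM of FLI1, before scaling, were 65.9 for control cells and 8.29 for treated cells, against 1.48 after knockdown. After scaling, FLI1 stood at 21.4 and 17.6 FPKM in control and treated cells, a plain ratio of 0.821 (0.7804 to 0.863). EWSR1 was at 80.2 and 76.9 scaled FPKM, a ratio of 0.958 (0.918 to 1.000). DHX9 was at 134 and 87.4 scaled FPKM, a ratio of 0.653 (0.6400 to 0.667), which is short of the threshold at -0.61 on the log2 scale. Of 13 compared genes for the fusion and its partners, 1 was past the threshold. This was HNRNPK, an RNA-binding protein of splicing and transcription, with 592 scaled FPKM in the control and 266 in treated cells (relative log2 ratio -1.15, SE 0.01).

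Genes that EWS-FLI1 is known to hold down had the highest median of any list with more than 10 compared genes. Of 31 compared, 18 were higher in treated cells, 0 were lower and all 31 had a relative log2 ratio above 0. Their median was 1.24, against 0.029 over all compared genes. With a pseudocount of 5 the count was 9 and the median 0.55, and with no filter on low values 18 of 40 were higher, with a median of 0.83. LGALS1, which encodes the sugar-binding protein galectin-1, was the highest of all genes compared that are not small RNAs. Its deposited FPKM were 15.2 for control and 251 for treated cells, a plain scaled ratio of 108 (90.7 to 129). In the knockdown library the deposited value was 5.41 FPKM, which after scaling lies above the control. ACTA2, the actin of smooth muscle, had 0.778 deposited FPKM in the control and 26.6 in treated cells, a ratio of 223 (123 to 455). The calcium-binding protein gene S100A6 had 16.6 and 73.7 deposited FPKM, a ratio of 28.96 (24.8 to 33.96). On the scaled level these 3 genes went from 4.92, 0.253 and 5.38 FPKM to 530.5, 56.2 and 156. LGALS8, another galectin gene, was higher at 1.61, and LGALS3BP, which encodes a secreted ligand of galectins, at 1.81, while LGALS3 was at -0.08. Fewer cells of a kind and less RNA per cell cannot be told apart in bulk libraries, for these genes or any below. TXNIP, a regulator of thioredoxin, was the member nearest the median gene, at 0.09.

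Genes that the fusion is known to activate lay on both sides of the median gene. Of 44 compared, 0 were lower and 6 were higher, and the median was 0.16, which became -0.059 on deposited ratios centred on their median and -0.23 with scaling over all named genes. The balance of calls turned with these settings, to 5 higher and 3 lower on centred ratios and to 3 higher and 4 lower with scaling over all named genes. NR0B1, an orphan nuclear receptor that is a standard target of the fusion, was at 37.95 scaled FPKM in the control and 49.4 in treated cells (0.37 on the log2 scale). The surface protein gene STEAP1 was at 177 and 148 scaled FPKM (-0.26), and IGF1, the growth factor, had the lowest ratio of the list at -0.94. The higher members were CCK, TNC, ABHD6, CAV1, ID2 and PAPPA. CCK, the gut and brain peptide cholecystokinin, had 0.206 scaled FPKM in the control and 80.6 in treated cells, and its control value rested on about 8 fragments. The ratio was 392, with an interval of 199 to 902. This gene passed the filter only through its treated value, so it could be counted only as higher. CAV1, the coat protein of caveolae, was abundant in both libraries, at 247.5 and 694 scaled FPKM (1.48). ID2, an inhibitor of differentiation factors, was at 117 and 308 scaled FPKM (1.39).

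Of 30 matrix glycoproteins and proteoglycans, 7 were higher and 0 lower, with a median of 0.52. The count of higher members was 4 with a pseudocount of 5, 16 with a pseudocount of 0.1 and 19 on centred ratios. Of all compared genes these settings put 1.19%, 6.33% and 12.3% higher. MGP, an inhibitor of mineralisation, went from 0.0715 to 38.7 scaled FPKM, a ratio of 542 whose interval was wide at 163.5 to 3528 because about 2 fragments lay behind the control value. FN1, which encodes fibronectin, went from 0.623 to 16.2 scaled FPKM, a ratio of 25.9 (22.7 to 29.7). SPARC, a collagen-binding glycoprotein, was at 7.62 scaled FPKM in the control and 55.3 in treated cells (2.71). The other higher members were the anti-adhesive tenascin TNC, TGFBI at 2.28, SDC2 at 1.798 and EFEMP1 at 1.73. Of 36 collagen genes in the files 10 were compared and 0 of these were past the threshold, with COL5A1 the highest at 0.74 and COL4A5 the lowest at -0.73. On centred ratios 4 of the 10 were higher, and with a pseudocount of 0.1 3 were. Among the 26 below the filter, COL1A2, a chain of the fibrillar collagen I, was at 0.02865 scaled FPKM in the control and 0.407 in treated cells, a ratio of 14.2 (6.49 to 37.3), with about 7 fragments behind the control value. COL1A2 was picked after its values were seen.

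Among 37 contractile genes, 4 were higher and 1 lower, with a median of 0.26 that turned to -0.064 with scaling over all named genes. The counts were 4 higher and 5 lower with that scaling, and 10 higher and 5 lower on centred ratios. Beside ACTA2, the enteric actin gene ACTG2 went from 0.3096 to 15.6 scaled FPKM (3.67), TMSB4X, which sequesters actin monomers, from 53.6 to 285 (2.39), and the actin-binding protein gene TAGLN from 0.124 to 1.95 (1.39). The ubiquitous actins went the other way without reaching the threshold, ACTB at -0.55 and ACTG1 at -0.75. Actin copies resemble each other closely, and how shared reads were divided is not given in the sources used here. PDLIM7, a PDZ and LIM domain protein of actin filaments, was the lower member, at 26.01 scaled FPKM in the control and 7.67 in treated cells (-1.64). Many smooth muscle genes carry CArG boxes, to which the serum response factor binds, so the promoter of ACTG2 is shown with its 2 matches in capitals. It is the RefSeq sequence of the plus strand at chr2:73892858-73893007 in GRCh38.p14, ending at the base before the annotated start, and the matches begin 110 and 73 bases before that start.
ACTG2: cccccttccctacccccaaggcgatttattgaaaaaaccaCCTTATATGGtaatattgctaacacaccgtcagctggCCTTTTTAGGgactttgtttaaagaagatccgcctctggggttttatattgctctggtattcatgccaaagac
A CArG box on either strand within 250 bases before the start occurred in 1.12% of all 22114 RefSeq promoters and in 0.837% of the 4899 compared genes that had one. The 41 compared genes with a match had a median relative log2 ratio of 0.16, with 4 higher and 1 lower, against 0.027 for the 4858 without. Of those without, 1.63% were higher and 1.61% lower, against 9.76% and 2.44% of the 41.

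Targets of YAP and of TGF-beta, 2 pathways of cell shape and matrix, counted 7 higher and 0 lower of 23, and their median was 0.39. The count of higher members was 1 with a pseudocount of 5, 4 with scaling over all named genes and 12 on centred ratios. CTGF and CYR61, secreted matricellular proteins that are standard YAP targets, went from 0.103 to 2.46 scaled FPKM (1.65) and from 0.293 to 2.885 scaled FPKM (1.59). TGFBI, ID2, ID3 and ANKRD1 were also among the higher members. Of 7 S100 proteins, 3 were higher and all 7 were above 0. S100A4, a protein of motile cells, was at 15.2 scaled FPKM in the control and 37.2 in treated cells (1.24). Annexins, which bind membranes with calcium, had 0 of 7 past the threshold, and ANXA2 was the nearest at 0.95. In the IGF axis, 3 of 15 were higher, the binding proteins IGFBP5 and IGFBP7 at 1.26 and 1.34 and the protease PAPPA at 1.10, while the receptor IGF1R was at 0.12.

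Cell cycle genes were read by phase. Among 20 genes of the G1/S switch, 2 were lower and 0 higher. CCNE2, the cyclin that with CDK2 starts S phase, had 84.8 scaled FPKM in the control and 14.25 in treated cells, a plain scaled ratio of 0.168 (0.158 to 0.179). E2F8, a repressive E2F factor made in S phase, was at 5.702 and 2.19 scaled FPKM (-1.07). CCND1, the cyclin of G1, was at -0.70 and CDK2 at -0.43, both short of the threshold. CCNE1, CCND3 and E2F1 were too scarce to be compared, with scaled ratios of 1.18 (0.743 to 1.88), 1.29 (0.839 to 1.998) and 1.04 (0.525 to 2.03). CCND2 was also below the filter, at 0.02165 scaled FPKM in the control, about 4 fragments, and 0.271 in treated cells, a ratio of 12.5 (4.29 to 53.2). CCNE1 stood at 0.537 scaled FPKM in the control, far below CCNE2.

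DNA replication genes leaned low, with 6 of 53 lower, 0 higher, 39 below 0 and a median of -0.33. The count of lower genes was 16 with scaling over all named genes and 12 on centred deposited ratios. Of all compared genes those settings put 8.18% and 4.49% lower, against 1.69% as reported. All but FEN1 of the lower genes act at or near origins of replication. CDC6, which loads the replicative helicase on origins, was at 29.9 scaled FPKM in the control and 9.52 in treated cells (-1.55). ORC1, the largest subunit of the origin recognition complex, was at 28.5 and 11.2 (-1.27), and MCM10, which helps activate the helicase, at 37.6 and 13.2 (-1.45). The flap endonuclease FEN1, which trims Okazaki fragments, was at 125 and 57.1 (-1.12). The subunits of the MCM helicase did not move as one. MCM3 and MCM5 were lower, at -1.28 and -1.25, MCM7 and MCM4 were at -0.96 and -0.78, and MCM6 and MCM2 were at -0.14 and -0.03. MCM7 was the most abundant of them, at 368 scaled FPKM in the control. PCNA, the sliding clamp, was at -0.33, and the ligase gene LIG1 had the highest ratio of the list at 0.72.

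The promoter of MCM3 is shown because replication genes are standard E2F targets, with the E2F match in capitals. It is the RefSeq sequence of the minus strand at chr6:52284743-52284942 in GRCh38.p14, read toward the start, and the match begins 174 bases before it.
MCM3: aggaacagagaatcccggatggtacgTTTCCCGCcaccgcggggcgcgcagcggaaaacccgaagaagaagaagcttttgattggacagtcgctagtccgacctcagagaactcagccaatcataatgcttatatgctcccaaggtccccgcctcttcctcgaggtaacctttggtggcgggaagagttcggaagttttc
The words searched on both strands were TTTCCCGC, TTTCGCGC, TTTGCCGC and TTTGGCGC. At least 1 occurred in 10 of 34 replication genes with a promoter in the table (29.4%), in 4.78% of compared genes and in 2.69% of all promoters. Over the 234 compared genes with such a match the median relative log2 ratio was 0.041, with 1 higher and 4 lower. These are 0.43% and 1.71%, against 1.76% and 1.61% of the 4665 compared genes without one, so the lower share was near that of the rest.

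Genes of mitotic entry leaned high. Of 35 compared, 3 were higher, 0 lower and 24 above 0, with a median of 0.31. With scaling over all named genes this median turned to -0.21, which is above the median of all genes there, and 0 of the 35 were past the threshold. UBE2S, which extends ubiquitin chains for the anaphase-promoting complex, was at 6.87 scaled FPKM in the control and 15.7 in treated cells (1.08, SE 0.10). GTSE1, a microtubule-binding protein of G2 and mitosis, was at 11.6 and 24.96 (1.04, SE 0.04). CKS2, a subunit that binds cyclin-dependent kinases, was at 734 and 1491 (1.02, SE 0.01). All 3 lay just past the threshold. CCNB1, the main mitotic cyclin, was just short of it, with 283 scaled FPKM in the control and 564 in treated cells, a plain scaled ratio of 1.99 (1.95 to 2.03). The related CCNB2 was at 0.72, CCNA2, the cyclin of S phase and G2, at 0.52, and the mitotic kinase PLK1 at 0.66. Their catalytic partner CDK1 was on the other side, at 168 and 130.2 scaled FPKM (-0.36), and WEE1, the kinase that restrains CDK1, was at -0.03 (SE 0.14).

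Many late cell cycle promoters carry a cell cycle genes homology region (CHR) element close to the start, read by the MuvB complexes. The 150 bases before the start are shown for 4 G2/M genes, with the element in capitals. They are RefSeq sequences of the plus strand in GRCh38.p14, at chr15:59104996-59105145 for CCNB2, chr16:23678739-23678888 for PLK1, chr9:89311045-89311194 for CKS2 and chr22:46296720-46296869 for GTSE1.
CCNB2: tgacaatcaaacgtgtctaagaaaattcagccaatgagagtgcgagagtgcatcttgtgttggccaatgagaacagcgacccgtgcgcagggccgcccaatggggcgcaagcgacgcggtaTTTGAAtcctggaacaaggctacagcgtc
PLK1: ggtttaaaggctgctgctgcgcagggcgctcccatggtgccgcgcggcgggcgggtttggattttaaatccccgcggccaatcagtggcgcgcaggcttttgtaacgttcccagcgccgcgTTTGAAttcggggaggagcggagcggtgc
CKS2: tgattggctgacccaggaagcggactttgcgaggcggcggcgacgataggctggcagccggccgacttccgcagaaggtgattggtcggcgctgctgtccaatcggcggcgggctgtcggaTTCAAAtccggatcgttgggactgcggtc
GTSE1: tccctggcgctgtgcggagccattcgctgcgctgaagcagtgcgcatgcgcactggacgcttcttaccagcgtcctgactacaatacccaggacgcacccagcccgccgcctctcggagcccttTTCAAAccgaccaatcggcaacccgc
The element began 29 bases before the start in CCNB2, PLK1 and CKS2 and 26 bases before it in GTSE1. In CKS2 and GTSE1 it lies on the other strand and is printed as its complement. The words searched were TTTGAA and TTCGAA on both strands within 250 bases. Of 20 G2/M genes with a promoter in the table, 11 held at least 1 (55.0%), against 9.84% of compared genes and 15.1% of all promoters. The 4 genes shown had the highest relative log2 ratios of these 11. The ratios of the rest ran from -0.34 for MASTL and 0.04 for CCNF to 0.37 for MKI67. CCNB1 and UBE2S held none of these words in the window. Over all 482 compared genes with a match the median relative log2 ratio was 0.046, with 13 higher and 10 lower. These are 2.70% and 2.07%, against 1.58% and 1.56% of the 4417 compared genes without a match.

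**Figure D2:**
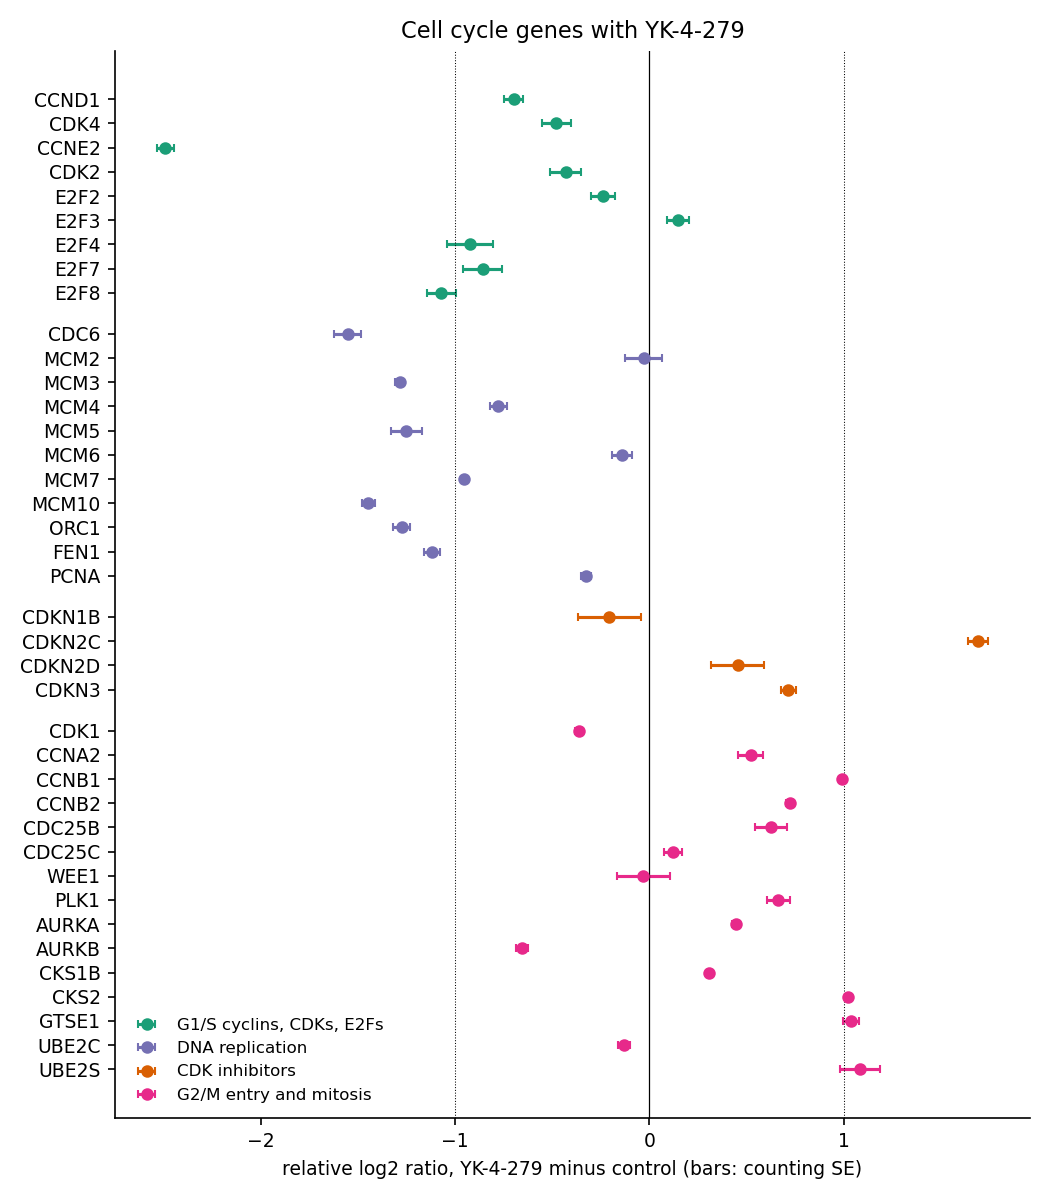
Relative log2 ratios of cell cycle genes, treated minus control, on the horizontal axis, with bars of 1 counting SE and colours for the phase or role. The replication genes CDC6, MCM10, MCM3, ORC1, MCM5 and FEN1 and the cyclin CCNE2 lie left of -1, and UBE2S, GTSE1 and CKS2 lie just right of 1.

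Inhibitors of cyclin-dependent kinases had 1 of 5 higher. CDKN2C, the INK4 inhibitor p18 of CDK4 and CDK6, went from 8.63 to 30.1 scaled FPKM, a ratio of 3.49 (3.22 to 3.78). CDKN3, a phosphatase that acts on these kinases, was at 0.72, and CDKN1B at -0.21. CDKN1A, which encodes p21, was below the filter at 0.0634 scaled FPKM in the control and 0.465 in treated cells, a ratio of 7.32 (3.12 to 20.6) that rested on about 6 fragments in the control.

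The spindle machinery, the site of action of vincristine, had few genes past the threshold. Of 21 spindle checkpoint and chromosomal passenger genes, 33 kinetochore genes and 29 kinesins, 0 were past the threshold, and their medians were -0.0085, -0.0063 and 0.068, which became -0.52, -0.48 and -0.39 with scaling over all named genes. In that setting 3 checkpoint and 5 kinetochore genes were lower, and on centred ratios 2 and 2 were lower and 4 kinesins higher. Of all compared genes 8.18% were lower with that scaling, and on centred ratios 4.49% were lower and 12.3% higher. With no filter 1 of 36 kinesins was higher. This was KIF26B, at 0.0999 scaled FPKM in the control and 1.94 in treated cells, a ratio of 19.4 (14.4 to 26.7). Within the checkpoint group, CDC20, the activator of the anaphase-promoting complex, and PTTG1, securin, had the highest ratios at 0.74 and 0.80, while the kinase AURKB was at -0.65. Of 15 tubulins, 1 was higher and 0 lower, and 10 were below 0. The abundant forms differed little. TUBA1B stood at 2685 scaled FPKM in the control and 2184 in treated cells, a ratio of 0.813 (0.804 to 0.823). TUBB was at 1706 and 1432, a ratio of 0.839. TUBA1C was at -0.47, TUBA1A at 0.34, TUBB4B at -0.12 and TUBB6 at -0.29 on the log2 scale. The exception was TUBA4A, an alpha-tubulin of neurons and platelets, which went from 2.85 to 13.6 scaled FPKM, a ratio of 4.77 (3.77 to 6.08). Tubulin genes are near-identical in their coding parts, so the split of reads among them is uncertain. Of 35 microtubule-associated proteins, 2 were lower, among them doublecortin (DCX) at -1.19.

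**Figure D3:**
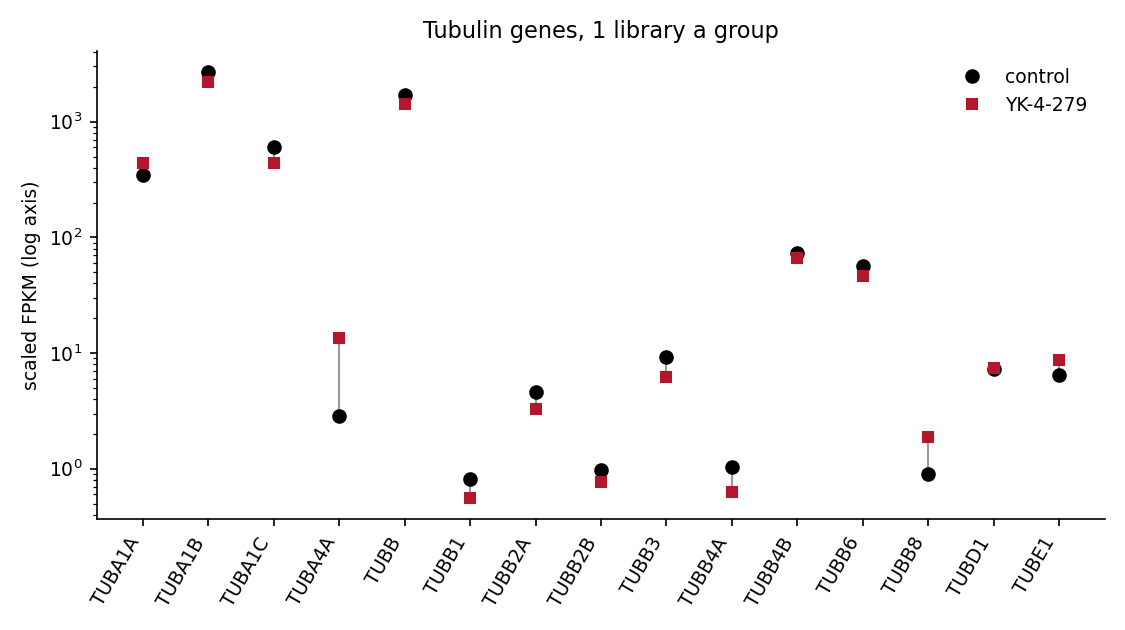
Scaled FPKM of the 15 compared tubulin genes on a log axis, with the control library as circles and the treated library as squares. The pairs lie close together for the abundant TUBA1B and TUBB, and TUBA4A shows the widest gap, from 2.85 to 13.6.

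Genes that bear on drug uptake and cell death gave no call. Of 4 compared efflux transporters 0 were past the threshold, with ABCB1, the transporter that exports vincristine, at 1.38 scaled FPKM in the control and 0.828 in treated cells (-0.38) and ABCC1 at -0.05. With no filter 0 of 11 transporters were past it, and their median turned from -0.14 to 0.18. Below the filter, ABCG2 had a plain scaled ratio of 2.59 (1.74 to 3.94) and ABCB4 of 1.38 (0.721 to 2.65). In the BCL2 family 0 of 9 were past the threshold, and 0 of 17 with no filter. The anti-apoptotic BCL2L1 was at -0.50 and MCL1 at 0.37, and the pro-apoptotic BAX was at 0.21. Family members below the filter included BCL2L11, with a ratio of 3.43 (1.93 to 6.39), and HRK, with 0.826 (0.557 to 1.21).

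Metallothioneins, small proteins that bind zinc and copper, numbered 3 among the 5 compared genes of the metal list. All 3 were higher, and the zinc exporter SLC30A1 and the regulator MTF1 were at 0.08 and 0.16. With scaling over all named genes, as on centred ratios, 1 of the 5 was past the threshold, and 7 of the 14 genes listed were at 0 in both libraries. MT2A was at 76.3 scaled FPKM in the control and 178 in treated cells, a ratio of 2.33 (2.22 to 2.45). MT1X was at 167 and 345, a ratio of 2.07 (1.99 to 2.15). For MT1E the control value was 0 and treated cells had 9.91 scaled FPKM. Below the filter, MT1F and MT1G again stood at 0 for control cells, with 2.04 and 2.385 scaled FPKM for treated cells. Near-identical copies make the division of reads among MT1 genes uncertain. MTF1 acts through short metal response elements, and those in the promoter of MT2A are in capitals below, in the RefSeq sequence of the plus strand at chr16:56608334-56608583 in GRCh38.p14.
MT2A: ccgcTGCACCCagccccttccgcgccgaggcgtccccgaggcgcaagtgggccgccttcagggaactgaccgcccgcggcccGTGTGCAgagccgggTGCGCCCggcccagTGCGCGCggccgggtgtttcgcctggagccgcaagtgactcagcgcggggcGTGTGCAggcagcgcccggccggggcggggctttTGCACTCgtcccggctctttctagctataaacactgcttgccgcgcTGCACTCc
The words searched on both strands were TGCACNC and TGCGCNC, and MT2A held 7 matches in 250 bases. At least 1 occurred in 24.3% of all promoters and 36.1% of compared genes, so the word alone is common. The 1770 compared genes that held it had a median relative log2 ratio of 0.032.

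Of 28 interferon response genes, 7 were higher and 1 was lower, and their median of 0.44 became -0.16 among genes with a mean of at least 5 FPKM. The count of higher members was 2 with a pseudocount of 5 and 15 on centred ratios. IFI16, a nuclear DNA sensor, went from 0.438 to 10.3 scaled FPKM (2.97), and the GTPase gene GBP1 from 0.00936 to 3.38 (2.12), with about 1 fragment behind the control value. ISG15, a ubiquitin-like modifier, was at 1.44, its protease USP18 at 1.41, and the antiviral genes IFIT3 and IFIT2 at 1.43 and 1.11. IFI30, a lysosomal thiol reductase, was at 1.48. LY6E was the lower member, at 29.8 scaled FPKM in the control and 4.23 in treated cells (-2.56), and the signalling factor STAT2 was at -0.93. In antigen presentation, 1 of 11 genes was past the threshold. This was PSMB8, a catalytic subunit of the immunoproteasome, at 0.0244 scaled FPKM in the control, which is about 1 fragment, and 14.1 in treated cells. PSMB8 passed the filter only through its treated value, so it could enter the comparison only as a higher gene. The 35 genes of the constitutive proteasome had 0 past the threshold and a median of -0.031.

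The low end was led by genes of unrelated function. MIF, a cytokine, had deposited values, before scaling, of 3007 FPKM for control cells, 247 after knockdown and 22.2 for treated cells. Its scaled level was 20.7-fold (19.7 to 21.8) lower in treated cells than in the control. The MIF receptor CXCR4 was below the filter and had 0.109 scaled FPKM in the control and 2.84 in treated cells, a ratio of 25.98 (13.5 to 56.9), while DDT, the close relative of MIF, was at 0.32. WDR18, a protein of ribosome assembly, went from 25.2 to 0.387 scaled FPKM, with about 21 fragments behind the treated value. MRPL12, of the large mitochondrial ribosomal subunit, went from 31.1 to 1.79, and ISOC1, an isochorismatase-domain protein, from 52.2 to 3.94. These 4 genes had the lowest ratios outside small RNAs and joined names. In the knockdown library WDR18, MRPL12 and ISOC1 had 0.605, 2.83 and 1.81 deposited FPKM, which after scaling also lie below the control. SHMT2, the mitochondrial serine hydroxymethyltransferase, was the 1 lower gene of 20 in serine and one-carbon metabolism, at 160.3 and 38.6 (-2.03). EIF4EBP1, which restrains cap-dependent translation, was at -2.36, and NUP188 of the nuclear pore at -2.09.

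Among 4 linker histones, 2 were lower. HIST1H1C was at 224.5 scaled FPKM in the control and 61.4 in treated cells (-1.85), and HIST1H1E at 39.6 and 11.8 (-1.67). HIST1H1D was at -0.71 and the replacement linker H1F0 at 0.27. Below the filter, HIST1H1B was at 0 in the control and 4.14 scaled FPKM in treated cells. With no filter 1 of 7 linker histones was higher and 2 were lower. Replication-dependent core histones had 1 of 19 higher, HIST1H2BH at 1.499, and 1 lower, HIST1H4C at -1.06. With no filter 4 of 41 core histones were higher and 1 lower, the added ones being HIST1H3C, HIST1H2AE and HIST1H3G. Their messages end in a stem-loop and carry no poly(A) tail, and the copies are near-identical, so their values depend on how cDNA was primed and how reads were divided. Among neuronal genes 3 of 15 were lower, the neurofilament genes NEFH and NEFL at -1.34 and -1.12 and DCX at -1.19. Neuropeptides and granins had 2 of 13 higher, CCK and the opioid precursor PENK (0.0579 to 8.95 scaled FPKM), and 1 lower, the dynorphin precursor PDYN at -1.06.

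The machinery of protein synthesis and energy stayed near the median gene. Of 71 cytosolic ribosomal proteins 0 were past the threshold, and their median of 0.19 turned to -0.31 on deposited ratios centred on their median and -0.32 with scaling over all named genes. Centring as done here lowers abundant genes by construction, and the other setting put the median of all compared genes at -0.38. Mitochondrial ribosomal proteins had 3 of 69 lower, MRPL12, MRPL4 at -1.34 and MRPL49 at -1.10. Oxidative phosphorylation had 1 of 71 higher, the cytochrome c1 gene CYC1 at 1.17. Aminoacyl-tRNA synthetases had 2 of 36 lower, both mitochondrial, LARS2 at -1.59 and TARS2 at -1.03. Since DHX9 works on RNA, splicing factors and RNA helicases were examined. Of 62 splicing factors 2 were lower, HNRNPK and PRPF38A at -1.04, and of 38 helicases 1 was lower, DDX27, a helicase of ribosome assembly, at -1.29. With scaling over all named genes 7 splicing factors and 8 helicases were lower, and on centred ratios 6 and 8. Over all compared genes 8.18% were lower with that scaling and 4.49% on centred ratios. In the integrated stress response 2 of 28 were higher, SLC7A5 at 1.79 and SLC3A2 at 1.36, the chains of 1 amino acid transporter, while the stress factors ATF4 and DDIT3 were at 0.23 and 0.53. On centred ratios 10 of the 28 were higher. Heat shock genes had 2 of 34 higher, the small chaperone CRYAB at 3.78 and the mitochondrial co-chaperone DNAJC15 at 3.62, and HSP90AA1 was at -0.42. DNAJC15 passed the filter only through its treated value, so it could be counted only as higher. No gene of the immediate early list (17 compared) or of glycolysis and hypoxia (31 compared) passed the threshold as reported. On centred ratios 7 of the 17 were higher, and of the 31 3 were higher and 3 lower. That setting put 12.3% of all compared genes higher and 4.49% lower.

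**Figure D4:**
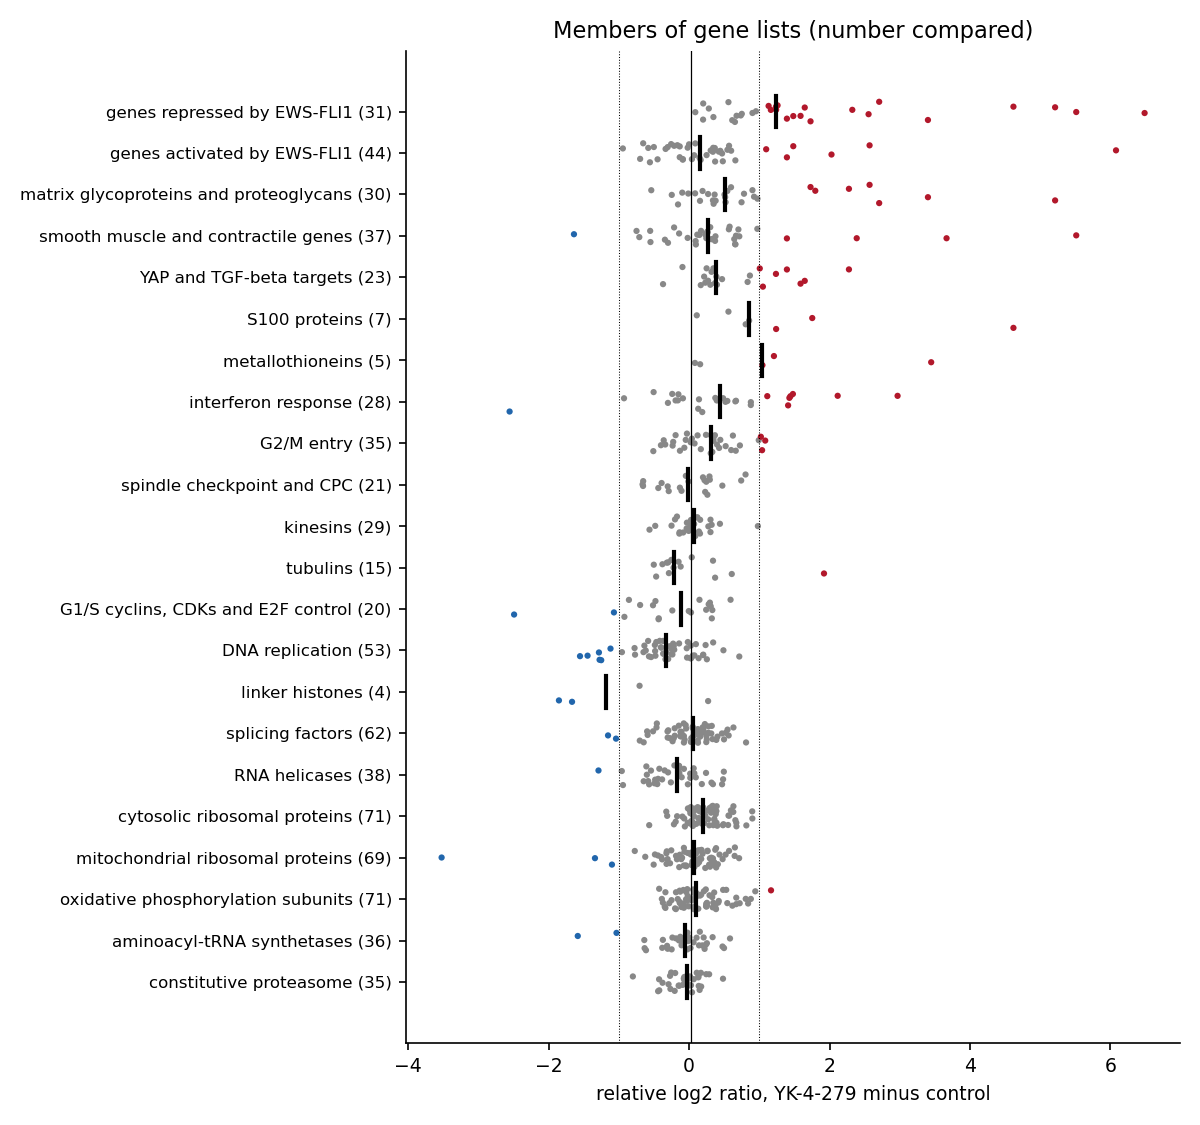
Relative log2 ratios, treated minus control, of the compared members of selected gene lists, each point 1 gene and each black bar the list's median. Points past the threshold of 1 are red or blue; CPC stands for chromosomal passenger complex. Genes repressed by EWS-FLI1 lie furthest right with a median of 1.24, and linker histones furthest left at -1.19.

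Several genes stood on opposite sides of the control in the treated and knockdown libraries, which share that control library. S100A6 had a relative log2 ratio of 4.62 in treated cells and -1.01 in the knockdown library, and S100A4 had 1.24 and -1.37. TNFAIP6, a hyaluronan-binding protein of inflammation, had 2.70 and -2.44, and CAV1 had 1.48 and -1.55. In the cell cycle the split was CCNB1 at 0.99 and -1.94, CKS2 at 1.02 and -1.78, and CDKN3 at 0.72 and -1.86. For CCNE2 the values were -2.49 and -2.47, and for ACTA2 5.51 and 6.59, both on the same side. The median ratio in the knockdown library was 0.87 over the 240 higher genes, -1.21 over the 168 lower genes and 0.0097 over the rest. Since the control library enters both ratios, a trait of that library and a shared difference cannot be told apart. The difference between the treated and knockdown libraries was not tested.

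The labelled cell type was checked against its markers. Of 10 Ewing sarcoma markers, 9 were compared and 0 of them were past the threshold, while CD99 was listed at 0 FPKM in both libraries. All 9 endothelial markers were below the filter and summed to 0.310 scaled FPKM in the control and 2.17 in treated cells. Of 12 leukocyte markers 1 was compared, CD68, a lysosomal protein found beyond leukocytes, at -0.50. PTPRC, the pan-leukocyte antigen, was at 0.0771 scaled FPKM in the control and 0.616 in treated cells, a ratio of 7.99 (2.87 to 29.6) on about 4 control fragments. The leukocyte list summed to 21.5 and 16.3 scaled FPKM and the epithelial list to 3.58 and 8.39. CD3D, CD3E and TYROBP were listed at 0 in both libraries. Of 10 epithelial markers KRT18 and ESRP1 were compared, at 0.98 and 0.89, and KRT5 and CLDN4 were listed at 0 in both. Fibroblast markers bear on the matrix genes above. Summed over the list, their scaled FPKM were 41.9 in the control and 66.9 in treated cells. Of 10, 6 were compared and 1, S100A4, was higher, while DCN, LUM, FAP, PDGFRB and COL1A1 were at -0.54, -0.01, 0.01, 0.25 and 0.68. THY1 was below the filter at 0.154 and 4.48 scaled FPKM. The part of any such cells in the results above was not tested.

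The difference also varied with expression level. In 5 equal groups of genes from scarce to abundant, the median relative log2 ratio was 0.17, 0.088, -0.0096, -0.099 and -0.045. The scarcest group held 81 of the higher genes and 16 of the lower, and the most abundant 36 and 39. Median GC content of the transcripts was 49.4% for higher genes, 53.9% for lower genes and 47.5% for the rest, and the part of GC content, length and level in the calls was not tested.

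How many genes were called depended on the processing. The plot of genes called under each way of processing gives all counts.

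**Figure D5:**
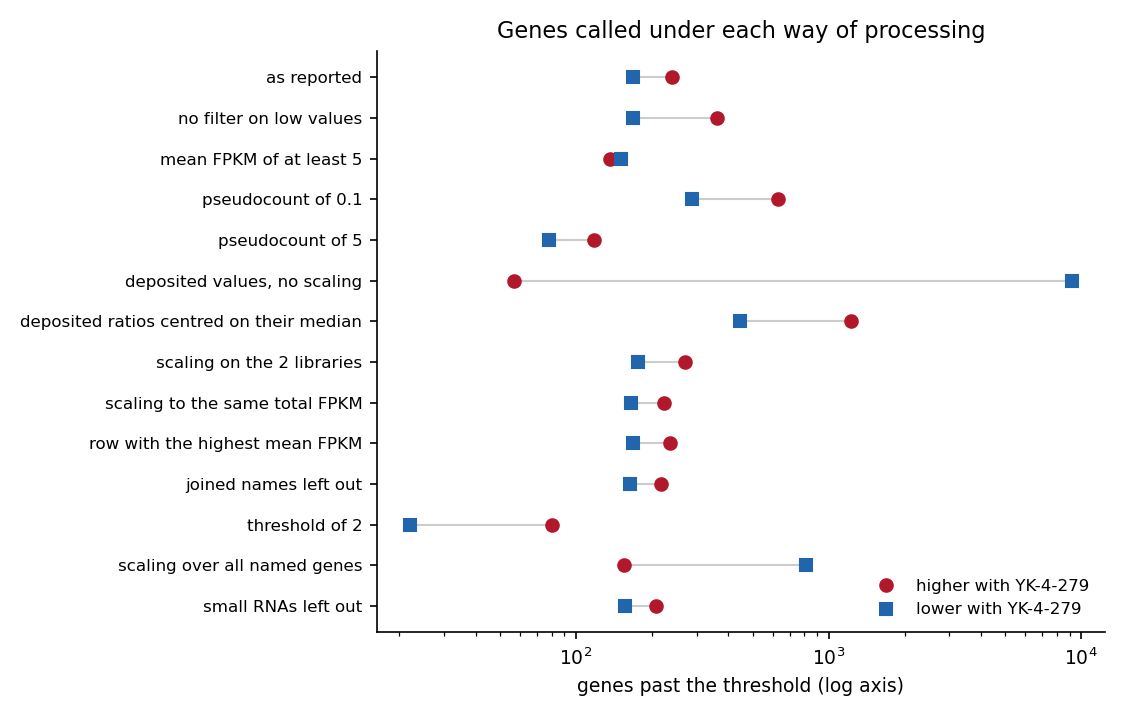
Number of genes past the threshold on a log axis under each way of processing, with genes higher in treated cells as circles and lower ones as squares. The count of higher genes lies between 57 on deposited values and 1225 on centred deposited ratios, against 240 as reported.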

How the data were processed

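Total RNA was converted to cDNA with the SMARTer PCR system, and sheared fragments were amplified by ligation-mediated PCR, per the labels' protocols. No strand selection is named. The authors deposited FPKM for 88434 loci per library. CASAVA 1.8.2, TopHat, Cufflinks 2.2.1 and GRCh37 (hg19) are named, per the submitters' processing notes. How the libraries were scaled and how multiply mapped reads were treated is not given in the sources used here.

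Of the loci, 63683 had no gene name and were left out. Rows were summed per name, and names that join several genes (546 compared) were kept. Genes with a mean deposited FPKM of at least 1 over 3 libraries were compared. In that mean the control weighs most. A gene near 0 in the other libraries, such as PSMB8, DNAJC15 or CCK, passes only through its treated value. Libraries were scaled by the median ratio to the geometric mean over 9883 compared genes above 0 in all 3, and 1 was added before log2. Scaling over all named genes, another reading of the rule, is an alternative. Fragments were estimated from GENCODE release 29 transcript lengths (known for 88.0% of compared genes) and the lowest FPKM steps of olfactory receptor genes, which put 1 fragment in 1 kb at 0.0649 FPKM in the control and 0.0127 in treated cells. Promoters came from RefSeq (GRCh38.p14), of which 4899 matched a compared gene by symbol.

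The genes named are the 30 highest and 30 lowest, members past the threshold or furthest from 0 in each of the gene lists, the fusion's partner genes, cyclins and abundant tubulins. CCNE1, CDKN1A, CXCR4 and other members below the filter, and members near the threshold or the median gene were added after their values were seen. Some genes that the rule names are not reported here. The comparison, its members and the gene lists were chosen with earlier results of these data known. Calling was checked on simulated data. These held counting error only, with changes placed in well-expressed genes. The check therefore does not cover spread between cultures or preparations, or changes of scarce genes. Python 3.11.15, pandas 2.3.3, numpy 2.4.6 and scipy 1.17.1 were used.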

Additional observations from a re-analysis of the deposited data

Results flagged for a closer look

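Small nucleolar, Cajal body and micro RNAs, which no comparison above describes, filled much of both ends of the ranking. Of 91 such RNAs compared, 32 were higher and 12 lower in treated cells. Among the higher ones 19 were listed at 0 FPKM in the control, and 8 of the lower ones were listed at 0 in treated cells. The largest were SNORA51, SNORA24 and SCARNA21, at 70.99, 58.8 and 55.7 FPKM in treated cells, while SNORA55, SCARNA8 and SNORA41 had 115.5, 98.2 and 91.97 FPKM in the control and 0 in treated cells. In all, 29 of the 91 were listed at 0 in the control, 18 in treated cells and 18 in the knockdown library. A listed 0 can be an estimate that was not made, so no fold is given, and whether these RNAs differed was not tested.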

How the results depend on the processing

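No paired analysis was possible because each group has 1 library, and for the same reason no library could be left out. The counts, as 240 higher and 168 lower, were 363 and 168 with no filter on low values, 136 and 151 at a mean of at least 5 FPKM, 629 and 288 with a pseudocount of 0.1, 118 and 78 with a pseudocount of 5, and 80 and 22 at a threshold of 2. On deposited values with no scaling they were 57 and 9160, with the median of all genes at -2.20. Centring the deposited ratios on their median gave 1225 and 446, so 73.3% of calls were higher against 58.8% as reported. There 1 was added before any scaling, which by itself raises scarce genes and lowers abundant ones. Scaling over all named genes, chosen after seeing the data, gave 155 and 813, with 16.01% of calls higher and the median of all compared genes at -0.38. The share of higher calls was 68.4% with no filter, 47.4% at 5 FPKM, 68.6% with a pseudocount of 0.1 and 78.4% at a threshold of 2. Scaling on the 2 libraries, scaling to the same total, taking the highest row per name, leaving out joined names and leaving out small RNAs (added after seeing the data) moved each count by less than 1.5 times. Of 106 genes past the threshold that the naming rule picked, 0 changed sign under the 10 alternatives run on single genes. Filters and pseudocounts cannot turn a sign, and these genes were picked for large ratios, so that count says little. With a pseudocount of 5, 66 of them stayed past it, with scaling over all named genes 89, and with centred ratios 92. List medians near 0 changed sign under some alternatives. Under scaling over all named genes those of contractile genes and the IGF axis turned to -0.064 and -0.068, both above the median of all genes there. With no filter, those of linker histones and neuronal genes turned to 0.22 and 0.16. The value of 1 library a group limits every statement, since neither culture nor preparation can be separated from the treatment.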

Other observations

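Some genes of retinoid and redox metabolism and of signalling were also far from the median gene. DHRS3, a retinaldehyde reductase, went from 0.0341 to 5.73 scaled FPKM, and CRABP1, which binds retinoic acid, from 1.81 to 30.02 (relative log2 ratio 3.46). The receptor kinase gene KIT was at 4.33 scaled FPKM in the control and 23.7 in treated cells (2.21). LY96, the co-receptor of the endotoxin receptor TLR4, was at 3.62, the methionine sulfoxide reductase gene MSRA at 3.04 and the aldo-keto reductase gene AKR1B10, the 1 higher gene of 29 NRF2 targets, at 2.97. On the lower side, RETSAT, a retinol saturase, was at -1.61. The highest and lowest joined names were SNHG12,SNORA44,SNORA61 at 4.76 and RNF149,SNORD89 at -5.82, and the gene within each that differed cannot be told apart. DHRS3, CRABP1, KIT, MSRA and RETSAT were chosen after their values were seen.

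Over all loci with no gene name, without a filter on low values, the median log2 ratio after scaling was 0.35. It was 0.029 for compared genes, which passed the filter, and 0.086 for named genes with no filter. Of the unnamed loci, 0 were at 0 in the control and at 10 FPKM or more in treated cells, while 1 showed the reverse.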
